A study of Mus musculus with 9 samples.

Results

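The Malat1 knockout line KO1 of the 4T1-TGL mouse mammary cancer line was compared with the line it was set against, Ctrl, across all genes. The members are the libraries whose titles carry KO1 and Ctrl, 3 of each, so 6 of the 9 libraries of the series. The other 3 libraries are from a second knockout line, KO2, which serves here as a second point of reference. All 9 samples are total RNA from cultured BALB/c 4T1-TGL cells in DMEM/F12, sequenced as pairs of 100 bp reads on a BGISEQ-500. Ctrl is wild type for Malat1, KO1 is the knockout line numbered 3 and KO2 the one numbered 43. The labels do not say how the gene was disrupted, whether a line is 1 clone, or whether replicates are separate cultures, so each p-value measures no more than how far these libraries vary, and that variation may be technical. With 1 line, what a loss of Malat1 does and what sets this line apart for another reason cannot be told apart.

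Malat1 is an abundant nuclear long noncoding RNA that is kept in nuclear speckles, the bodies that store splicing factors. It is not needed for life in the mouse, and its loss in breast cancer models has been linked to changes in differentiation, invasion and metastasis. The neighbouring gene Neat1 makes the RNA scaffold of paraspeckles, another nuclear body.

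The Malat1 start region is shown because it is the gene by which the lines were named; it lies on the minus strand of chromosome 19 in GRCm38.p6 (chr19:5802623-5802922, sequence from RefSeq, 5′ to 3′), and the capitals mark the bases from the start site on.
Malat1: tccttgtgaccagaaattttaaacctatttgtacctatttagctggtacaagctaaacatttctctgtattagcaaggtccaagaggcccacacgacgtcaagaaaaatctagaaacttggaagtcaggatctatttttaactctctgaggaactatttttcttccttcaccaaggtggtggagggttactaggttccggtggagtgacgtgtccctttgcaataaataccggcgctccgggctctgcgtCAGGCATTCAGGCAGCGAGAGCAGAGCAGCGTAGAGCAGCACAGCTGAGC

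Malat1 (gene 72289, chromosome 19, 5795690 to 5802672) was at 510, 402 and 474 CPM (counts scaled to library size) in the 3 Ctrl libraries. In KO1 it was at 3.88, 3.69 and 2.63 CPM, from 135, 119 and 86 counts. KO2 kept 119, 160 and 98.1 CPM. The KO1 level was 0.735% of that in Ctrl, a log2 fold change of -7.08 ± 0.236 (standard error; edgeR quasi-likelihood F test, adjusted p = 2.55e-08), and it was also below KO2 (log2 -5.21). No library of one group overlapped with another. Neat1 was at 951, 776 and 975 CPM in Ctrl and at 1061, 1051 and 941 CPM in KO1, so the groups overlapped and the change did not pass the test (log2 0.17 ± 0.12, adjusted p = 0.30). In KO2, Neat1 was at 1906, 2197 and 1597 CPM, above every Ctrl and KO1 library. KO1 was lower than KO2 at this gene (log2 -0.90, edgeR quasi-likelihood F test, adjusted p = 9.23e-05).

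The 6 libraries held 31451889 to 35406395 counts each over 16104 to 16488 listed genes. On principal components of these libraries, the first carried 71.4% of the variance and set Ctrl (-46.24 to -42.95) apart from KO1 (43.5 to 45.7), and the second carried 12.4%. Of 10 tested epithelial markers of the mammary gland, 3 were higher (Krt8, Krt18, Trp63) and 3 lower (Krt14, Gata3, Foxa1), with a median log2 fold change of -0.04; their sum of 917 to 926 CPM in Ctrl and 1332 to 1586 CPM in KO1 was made up mostly of Krt8 and Krt18. Markers were also summed over all listed genes, tested or not. Those of fibroblasts (7 genes, 2 tested) had 9349 to 9943 counts per Ctrl library and 8475 to 8675 per KO1 library. Those of macrophages and neutrophils (12 genes) had 1441 to 1605 counts per Ctrl library and 1664 to 2112 per KO1 library. Endothelial markers (7 genes, 1 tested) had 10 to 18 and 19 to 28 counts. Markers of T and NK cells had 6 to 11 and 7 to 11 counts over 2 listed genes, and those of adipocytes 0 to 2 and 2 to 3, with no member of either tested. Their part in the results was not tested.

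KO1 and Ctrl differed at 4177 of 13682 tested genes (30.5%; edgeR quasi-likelihood F test, adjusted p under 0.05), of which 2136 were higher in KO1 (15.6%) and 2041 lower (14.9%). A change of at least 2-fold was seen in 602 of the higher genes (4.4% of the genes tested) and in 481 of the lower ones (3.52%). Of the called genes, 46.4% were under 0.5 on the log2 scale in size, 944 of them higher and 994 lower. Among the largest changes the balance was the other way from the total, with 84 genes higher and 162 lower by 3 or more on the log2 scale. The called higher genes together rose from 10.76% to 15.37% of the summed CPM, and the called lower genes went from 18.43% to 13.22%. Of 539 tested long noncoding RNA genes, 68 were higher and 30 lower, against 1924 and 1910 of 12048 protein-coding genes.

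**Figure D1:**
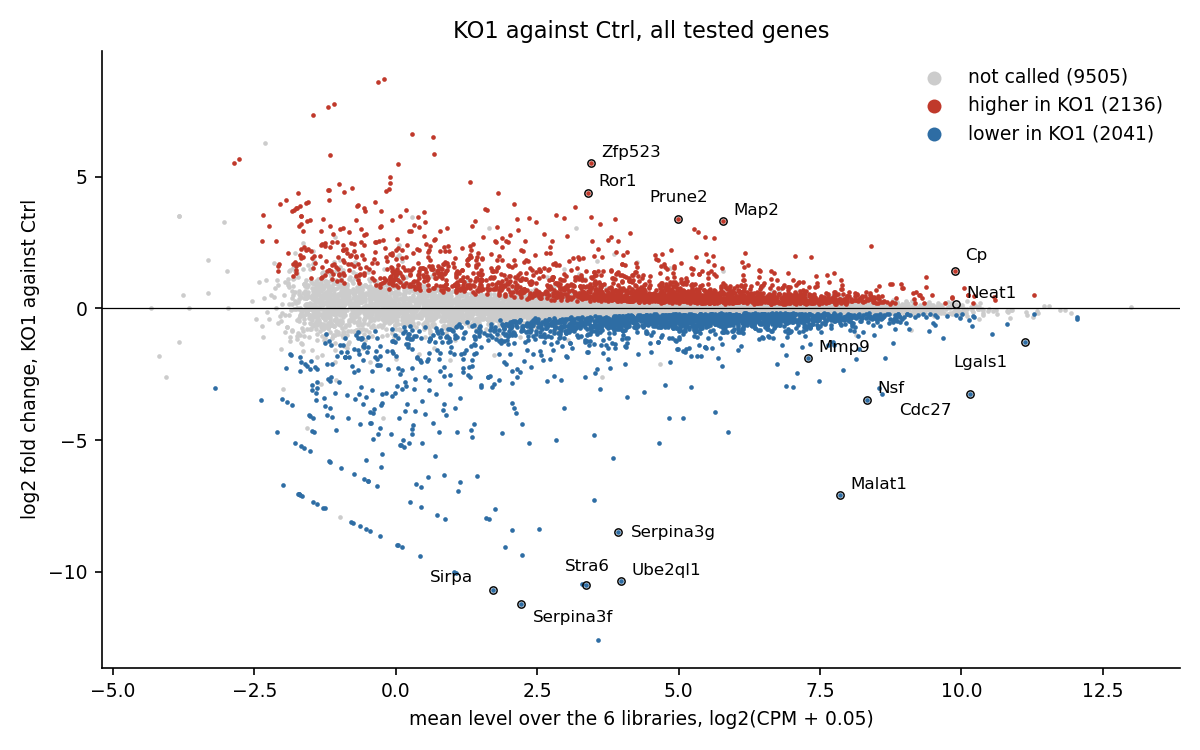
Log2 fold change of KO1 against Ctrl (y axis) by mean level over the 6 libraries, log2(CPM + 0.05) (x axis), 1 point per tested gene, with called genes in red (2136 higher) and blue (2041 lower) and not called genes in grey. Malat1 at -7.08 stands apart from other genes of its level, Neat1 lies near 0, and the slanting lines of points at the lower left are genes with 0 or few counts in KO1, whose fitted folds depend on the prior count.

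The genes with the largest rise in KO1 were low or barely detected in Ctrl. Zfp523, a zinc finger transcription factor on chromosome 17, was at 0.511, 0.534 and 0.334 CPM in Ctrl and at 20.4, 21.3 and 22.3 CPM in KO1, a 45.8-fold rise (log2 5.52 ± 0.139, adjusted p = 6.13e-10). It was high in KO2 as well, at 31.2 to 32.9 CPM. Ror1, a receptor tyrosine kinase-like protein that binds Wnt5a, went from 0.841, 1.15 and 0.82 CPM to 22.8, 16.9 and 20.2 CPM (log2 4.40 ± 0.223). In contrast to Zfp523 it was nearly absent from KO2, at 0, 0.102 and 0.034 CPM.

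Map2, a microtubule protein best known from the dendrites of neurons, showed the same order at a higher level. It was at 10.9, 9.11 and 10.5 CPM in Ctrl, at 100.4, 103.4 and 98.2 CPM in KO1 and at 0 in all KO2 libraries (KO1 against Ctrl, log2 3.31 ± 0.093). Prune2 rose from 4.84, 5.79 and 6.05 CPM to 67.6, 46.1 and 61.2 CPM, with at most 0.328 CPM in KO2. The other genes of the 12 with the largest rise were Asb2 (log2 4.38), a substrate receptor of a ubiquitin ligase; Chdh (3.96), the choline dehydrogenase of mitochondria; Chst1 (3.84), a carbohydrate sulfotransferase; Rcan2 (3.78), a calcineurin regulator; Acox2 (3.54), a peroxisomal acyl-CoA oxidase; Limch1 (3.46); Abca8b (3.43), a membrane transporter; and Cplx2 (3.39), a complexin of vesicle fusion. In each of the 12, all 3 KO1 libraries were above all 3 Ctrl libraries, as they were at 2986 of the 13682 tested genes.

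The largest falls were losses to a few counts or none, and many of these genes were at or near 0 in KO2 as well. Stra6, for example, had 0 counts in KO2. Stra6, the cell-surface receptor for retinol-binding protein, was at 16.9, 25.0 and 19.2 CPM in Ctrl, and 1 count was left over the 3 KO1 libraries against 2083 in Ctrl, or 0.049% (95% exact binomial interval 0.00124% to 0.273%, which like the other intervals covers counting error only). Ube2ql1, a ubiquitin-conjugating enzyme-like gene, was at 26.9, 38.1 and 29.1 CPM in Ctrl and at 49.6 to 52.5 CPM in KO2, but had 2 counts in KO1 (0.0636% of Ctrl, 0.0077% to 0.23%). Sirpa, the receptor for the "do not eat me" protein CD47, was at 6.43, 6.44 and 6.47 CPM in Ctrl with 0 counts in KO1, a level at least 134-fold lower when KO1 is given 3 counts in all and as many more as could go unlisted. In KO2, Sirpa was at 0, 0.17 and 0.034 CPM.

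A cluster of serpin genes on chromosome 12 supplied 3 of the 12 largest falls. Serpina3g, an inhibitor of intracellular proteases, went from 28.2, 33.2 and 29.99 CPM to 0.115, 0.062 and 0.0612 CPM. Serpina3f had 931 counts in Ctrl and 0 in KO1, at least 219-fold lower, and Serpina1b, an alpha-1 antitrypsin gene, had 1974 counts in Ctrl and 1 in KO1. KO2 had 0 counts of Serpina3f and Serpina1b and at most 0.034 CPM of Serpina3g. These genes have close copies, among which the authors' counting may have split reads, so the values of single copies are uncertain. The other genes of the 12 were Islr, Ogdhl (an oxoglutarate dehydrogenase-like enzyme), Pros1 (protein S, an anticoagulant and ligand of TAM receptors), Cd300lg, Sorcs1 (a sorting receptor) and Rims2 (a scaffold of the presynaptic release site), with 1 to 3 counts left in KO1. In KO2, Islr, Cd300lg, Sorcs1 and Rims2 were at most 0.131 CPM, whereas Ogdhl was at 12.5 to 13.3 CPM and Pros1 at 3.64 to 4.14 CPM.

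In all, 25 called genes had 0 counts in KO1, and 10 of them have a gene name and at least 1 CPM in Ctrl. They include Tnfsf15, a TNF family ligand (at least 25.4-fold lower), Inhbb, the inhibin beta B chain of activin B (at least 20.7-fold lower), and Wnt9b (at least 23.8-fold lower). Each of these was at 0 CPM in KO2 too. Of the 10, only the carboxypeptidase M gene (symbol Cpm) was above 0.17 CPM in KO2, at 8.22 to 11 CPM. The reverse was seen in 7 genes, of which Khdrbs3, an RNA-binding splicing regulator, was the named one with at least 1 CPM. It had no counts in Ctrl, 1.52, 1.39 and 1.96 CPM in KO1 and at most 0.0339 CPM in KO2, and was at least 43.5-fold higher in KO1.

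**Figure D2:**
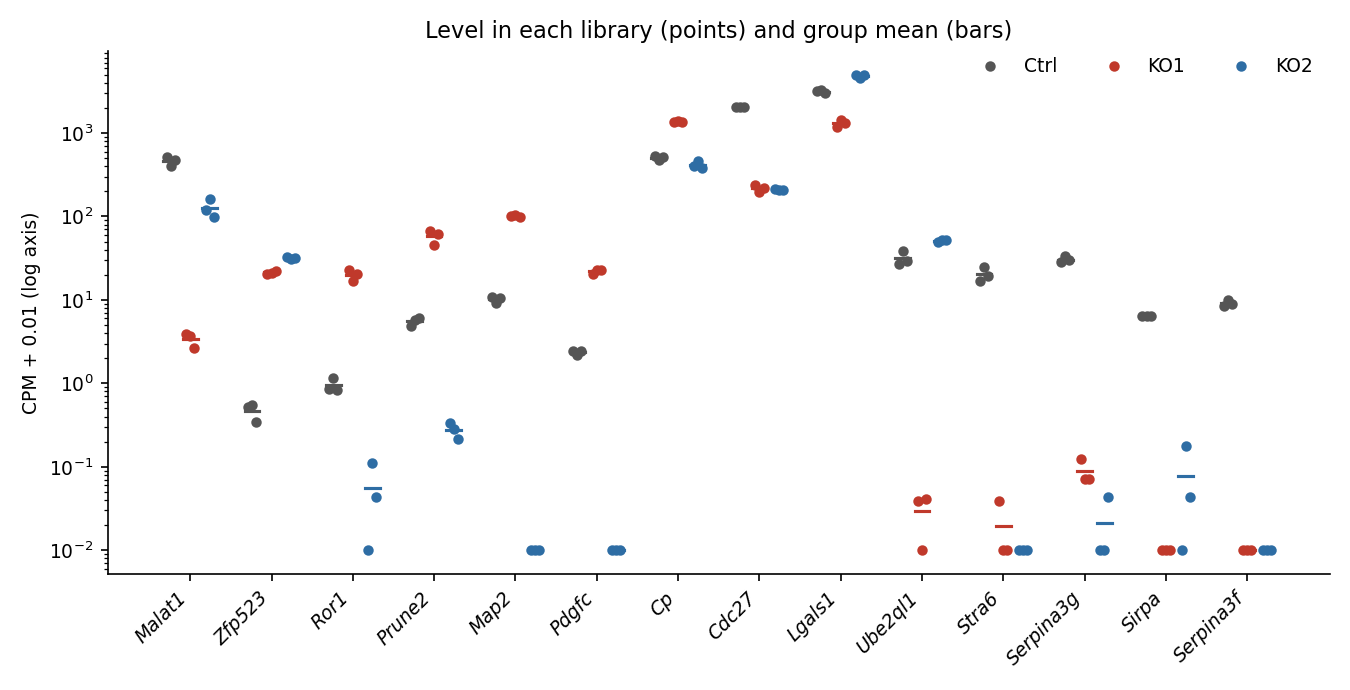
CPM + 0.01 on a log axis for 14 genes (x axis) in each of the 9 libraries (points) with the mean of each group (bars), Ctrl in grey, KO1 in red and KO2 in blue; points at 0.01 are libraries with 0 counts. Map2, Ror1, Prune2 and Pdgfc are high in KO1 and lower in KO2 than in Ctrl, while Cdc27 lies near 210 CPM in both knockout lines.

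By absolute level, the largest gains were in secreted and matrix proteins. Cp, the copper-carrying ferroxidase ceruloplasmin, rose from 533, 476 and 516 CPM to 1367, 1401 and 1366 CPM (log2 1.44 ± 0.077). Fn1, fibronectin, rose from 1783, 2363 and 2031 CPM to 2891, 2922 and 3026 CPM (log2 0.52 ± 0.095). The rises of Igfbp4 (log2 0.78), a binding protein of insulin-like growth factors, Serpine2 (1.18), the thrombin and plasmin inhibitor protease nexin-1, Sned1 (2.35), a matrix glycoprotein, and Cxcl5 (0.48), a neutrophil-attracting chemokine, also left no overlap between groups. That is common, since KO1 and Ctrl overlapped at only 89 of the 4177 called genes. The 2 intracellular genes among the 8 largest gains were Top2a (0.43), the topoisomerase of dividing cells, and Ctnnb1 (0.53), beta-catenin.

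The largest losses by level were Cdc27, a subunit of the anaphase-promoting complex, and Lgals1, galectin-1. Cdc27 fell from 2074, 2071 and 2026 CPM to 238, 194 and 221 CPM, and KO2 held almost the same level, at 209 to 210 CPM (KO1 against KO2, log2 0.05). Lgals1 fell from 3175, 3270 and 2988 CPM to 1171, 1426 and 1324 CPM, while KO2 was at 4613 to 5022 CPM. They were followed by H1f0 (a linker histone, log2 -0.98), Pabpc1 (the poly(A)-binding protein, -0.31), Hsp90aa1 (a chaperone, -0.60), Gosr2 (a Golgi SNARE, -3.27), Ddx17 (an RNA helicase, -1.11) and Kansl1 (a subunit of the NSL histone acetyltransferase complex, -3.03). Of these 8 genes, Cdc27, Gosr2 and Kansl1 are neighbours on chromosome 11, and Lgals1, H1f0 and Ddx17 lie near each other on chromosome 15.

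The called genes were therefore laid out along the chromosomes, with positions from RefSeq GRCm38.p6, the build of the files. Among 11783 genes with at least 1 CPM in Ctrl or KO1, there were 6 stretches of 8 or more consecutive genes that were all called in 1 direction, and all 6 were lower in KO1. They hold 76 genes, of which 49 were lower by at least 2-fold. Neighbouring genes were also higher together, but not in such unbroken stretches. In windows of 30 consecutive tested genes, the highest median log2 fold change was 0.48 (chromosome 15, Nr4a1 to Mir688, 21 higher, 0 lower). The window from Myc to Ly6c2 on that chromosome had a median of -0.80 (18 lower, 2 higher). Chromosome 15 had 132 higher and 95 lower genes of 522. The rule for stretches was written after positions had been looked at, so it describes these lines and carries no test, and the number of gene copies was not measured.

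The first stretch spans 1.9 Mb of chromosome 11 (103219764 to 105117537), with 17 genes from Map3k14 to Efcab3. In the KO1 libraries the median gene of this stretch was at 10.7%, 9.9% and 13% of the Ctrl mean, and in the KO2 libraries at 10.8%, 10% and 10.2%. All 17 genes were lower by at least 2-fold in KO1. Besides Cdc27, Gosr2 and Kansl1 they include Nsf, the ATPase that recycles SNARE complexes, which fell from 579, 624 and 570 CPM to 53.6, 51.7 and 55.2 CPM. Mapt, the microtubule protein tau, fell from 113, 110 and 117 CPM to 3.85, 4.31 and 4.87 CPM, and Map3k14, the NF-kB-inducing kinase, from a mean of 232 CPM to 42.0 CPM.

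Levels returned at both ends of the stretch. Mettl2 and Tlk2, the next genes past Efcab3, were not called (log2 -0.02 and 0.03), and 1700023F06Rik before Map3k14 was not called either (0.30), although Fmnl1, the gene before that, was lower (-2.34). Itgb3, the integrin beta 3 chain, lies inside it and fell from 184, 144 and 198 CPM to 29.5, 52.6 and 38.1 CPM. The ligands Wnt3 and Wnt9b, at a mean of 1.27 and 1.29 CPM in Ctrl, are also part of it and were at 0.0191 and 0 CPM in KO1. Against KO2, 3 of the 17 genes were higher in KO1 and 3 lower, or 35.3% called against 55% of all tested genes.

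The second clear stretch is on chromosome 15 (78755882 to 79136900, 0.38 Mb), with 14 genes from Mfng to Micall1, and here the 2 knockout lines differed. The median gene was at 34.8%, 37.8% and 39.1% of the Ctrl mean in the KO1 libraries and at 115.1% to 122.6% in the KO2 libraries. All 14 genes were called lower in KO1 against KO2 too, where 25.5% of the tested genes were lower in KO1 and 29.5% higher. Eif3l, a subunit of a translation initiation factor, was at 632 CPM in Ctrl, 173 CPM in KO1 and 709 CPM in KO2 (means, n = 3). Card10, a scaffold of NF-kB signalling, was at 214, 76.5 and 291 CPM in that order, and Cdc42ep1, a Cdc42 effector, at 436, 150 and 434 CPM. Past Micall1, lower genes alternated with genes that were not called, among them Polr2f (-1.50), Pick1 (-1.47), Ddx17 (-1.11) and Cby1 (-1.54).

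**Figure D3:**
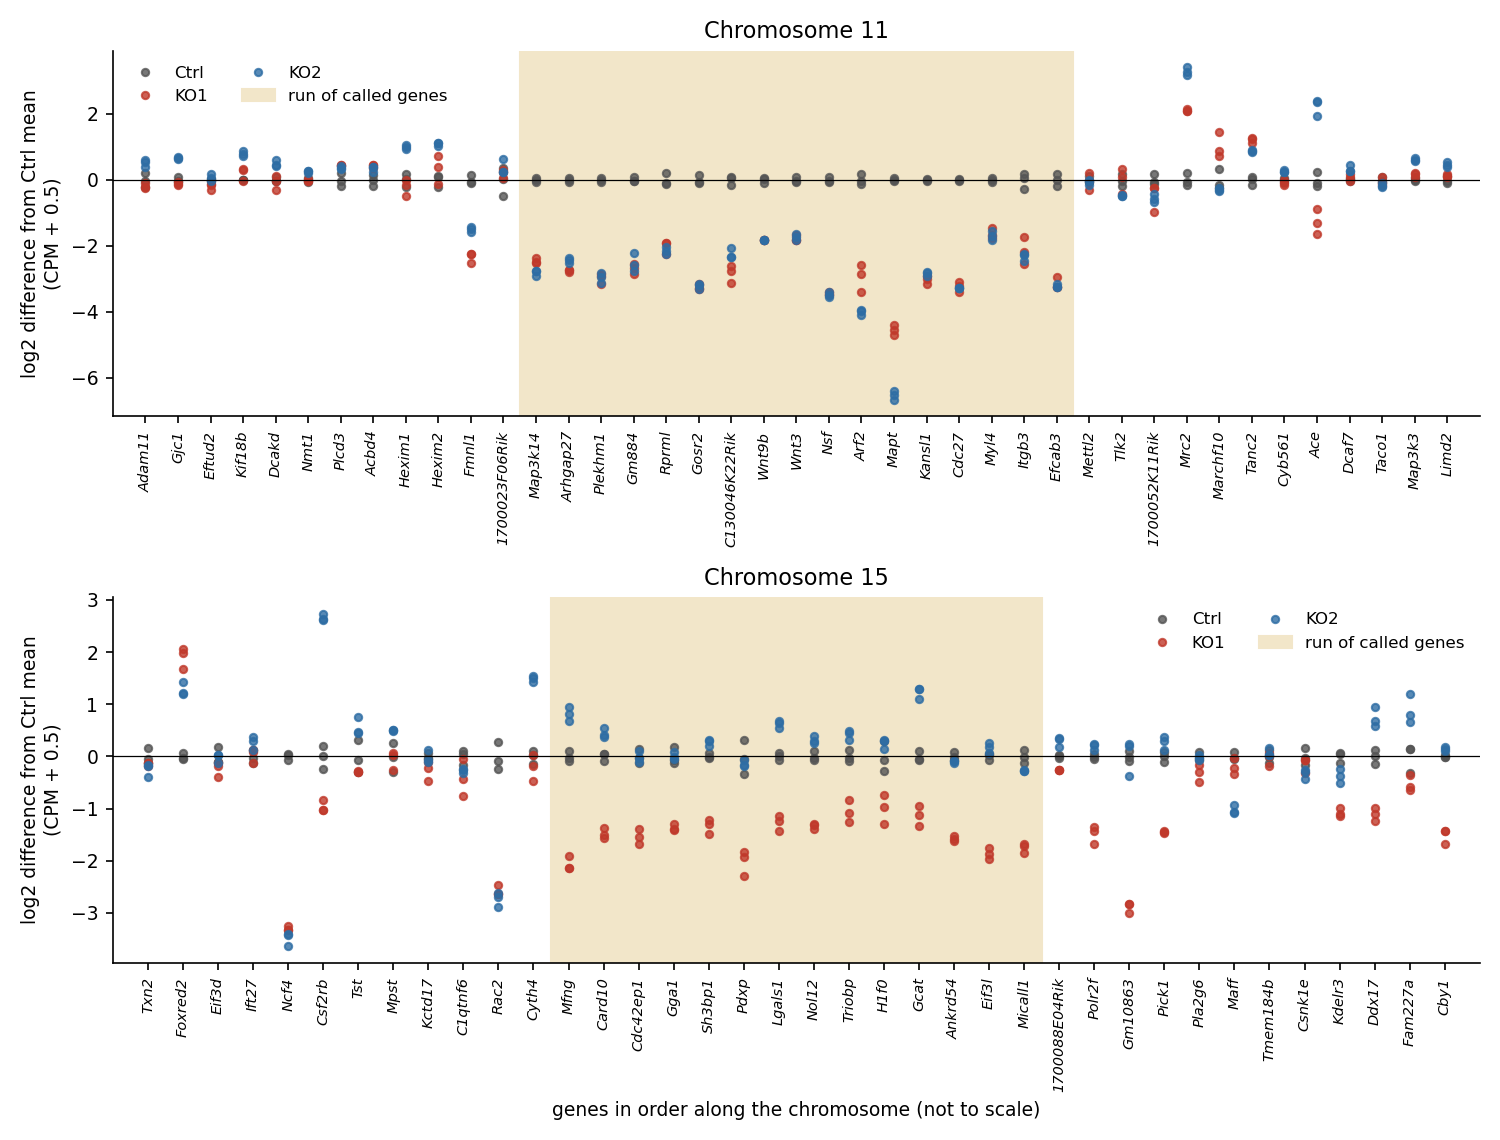
Log2 difference of each library from the Ctrl mean (CPM + 0.5, y axis) for the genes of the chromosome 11 stretch (top) and the chromosome 15 stretch (bottom), shaded, with up to 12 genes on each side, in gene order (x axis, not to scale). In the chromosome 11 stretch all KO1 (red) and KO2 (blue) points lie below Ctrl (grey) at 17 of 17 genes; in the chromosome 15 stretch those of KO1 do at 14 of 14 genes and those of KO2 at 2 (Ankrd54 and Micall1), while Ncf4 and Rac2 beside it are low in both lines.

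The next 3 stretches are all on chromosome 12, and that chromosome was lower as a whole. Of its 446 tested genes, 257 were lower and 20 higher, so that 62.1% were called against 30.5% of all genes, with a median log2 fold change of -0.38. The KO1 libraries had medians of -0.34, -0.41 and -0.40 on this chromosome, against -0.11 to -0.07 in KO2 and -0.02 to 0.02 in Ctrl. The median was -0.33 over the genes that start in the first 95 Mb and -0.59 over the 122 genes beyond, where 88 were lower. The stretch from Serpina1b to Hhipl1 (103728156 to 108328300) holds 18 genes, the serpin cluster among them. Their median was 55.7% of Ctrl in KO1 and 83.4% in KO2. The serpin genes of the stretch were at most 2.95% of Ctrl in KO1 and 0.0372% in KO2. The stretch also holds Dicer1, the nuclease that cuts microRNA precursors. Its means were 96.3 CPM in Ctrl, 64.2 CPM in KO1 and 98.4 CPM in KO2. Papola, the poly(A) polymerase, was at 466, 292 and 440 CPM in that order. The 10 genes from Zfp839 to Eif5 were at a median of 61% of Ctrl in KO1 and 96% in KO2. The 8 from Zfp386 to Sp4 were at 67.0% in KO1 but 145.7% in KO2.

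Chromosomes 13 and 7 were lower to a smaller extent. On chromosome 13, 158 of 477 genes were lower and 34 higher (median -0.20), and on chromosome 7, 281 of 948 were lower and 63 higher (median -0.18). KO2 had medians of -0.22 to -0.19 and of -0.15 to -0.12 on these 2 chromosomes. The other chromosomes had medians from -0.05 to 0.09 in KO1. Without chromosomes 7, 12 and 13, the counts were 2019 higher and 1345 lower genes of 11811, so these 3 chromosomes hold 696 of the 2041 lower genes and 117 of the 2136 higher ones. The sixth stretch, on chromosome 18, consists of 9 low-level protocadherin genes, Pcdhb5 to Pcdhb21, at a median of 44.7% of Ctrl, and these are close copies of each other.

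**Figure D4:**
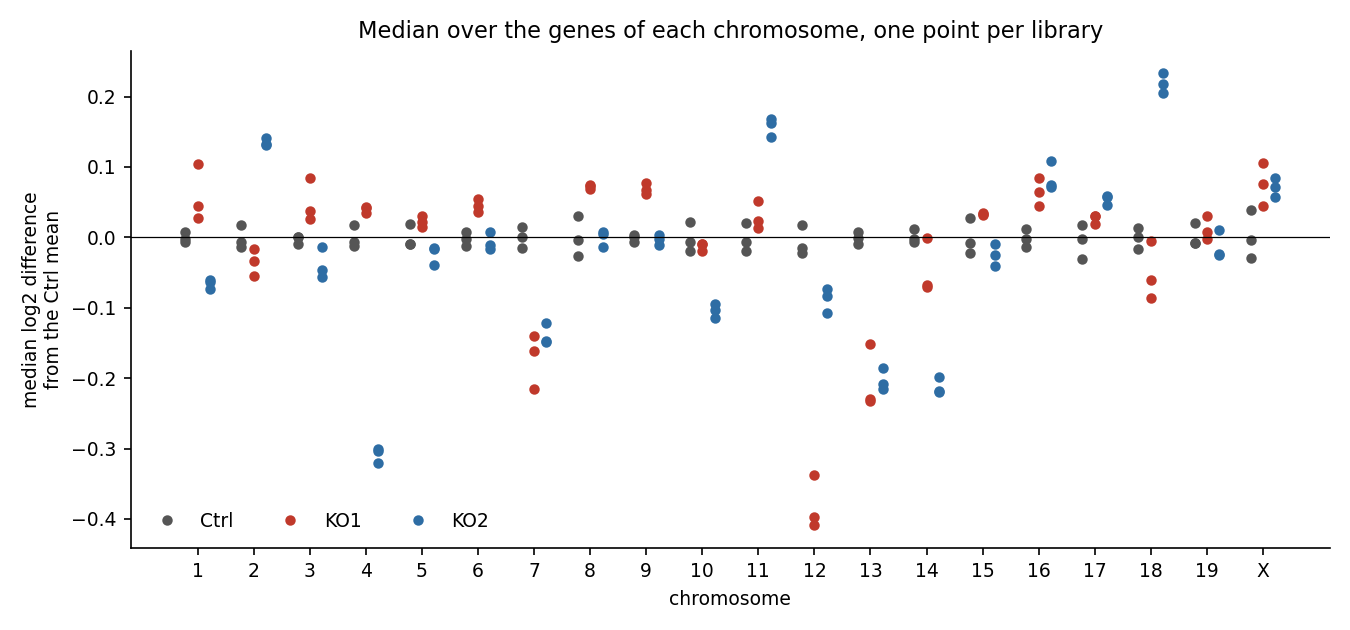
Median over the genes of each chromosome (x axis) of the log2 difference from the Ctrl mean (CPM + 0.5, y axis), 1 point per library, Ctrl in grey, KO1 in red and KO2 in blue. The KO1 libraries lie lowest on chromosome 12 (-0.41 to -0.34), and on chromosomes 7 and 13 the KO1 and KO2 libraries lie together below 0.

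The gene lists described next were compared with the shares over all genes, 15.6% higher and 14.9% lower. A share near those says nothing about the list. The lists were chosen with earlier results of these data known, so a share above those is a description and carries no test.

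Matrix metalloproteinases cut collagens and other matrix proteins and are made by many invasive tumour cells. Of 13 tested Mmp genes, 6 were lower in KO1 and 2 higher. Mmp9, gelatinase B, fell from 214, 283 and 243 CPM to 73.8, 60.4 and 67.7 CPM, and KO2 was at 46.6 to 56.5 CPM. Mmp3, stromelysin-1, fell from 402, 381 and 382 CPM to 192, 187 and 181 CPM, whereas KO2 was at 1122 to 1207 CPM. Mmp13, collagenase 3, fell from 21.2, 21.6 and 21.9 CPM to 7.84, 7.56 and 7.38 CPM.

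In the same cluster of chromosome 9, Mmp10, stromelysin-2, fell from 2.55, 1.74 and 2.34 CPM to 0.689, 1.18 and 0.857 CPM. Mmp1b, an interstitial collagenase with the close copy Mmp1a, fell from 16.2, 8.16 and 13.6 CPM to 2.61, 4.80 and 3.06 CPM, and Mmp1a was at 0.476 CPM in Ctrl and 0.324 CPM in KO1 and was not called. These 4 called genes were lower in KO1 than in KO2 as well (log2 -2.66 to -1.07). The 2 higher genes were Mmp15 (log2 1.51), at about 1 CPM, and Mmp11 (0.29). Timp2, an inhibitor of these enzymes, rose from 452, 467 and 447 CPM to 641, 724 and 685 CPM (0.58), and Timp1 did not pass the test (-0.15). Over the whole list of extracellular proteases, 9 of 41 were higher and 11 lower, and the 9 became 4 when replicate 1 or 3 of Ctrl, or replicate 3 of KO1, was left out.

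The 110 bases before the start sites of the 4 lower genes of that cluster are shown because of the letters they hold. Each has, in 1 strand or the other, an AP-1 site (searched as TGANTCA on both strands) and TATAAA (searched on both strands), both in capitals. The sequences are from RefSeq (GRCm38.p6, 5′ to 3′ in the direction of the gene). Mmp13 is on the plus strand (chr9:7272404-7272513), Mmp3 on the plus strand (chr9:7445712-7445821), Mmp10 on the plus strand (chr9:7502232-7502341) and Mmp1b on the minus strand (chr9:7388027-7388136).
Mmp13: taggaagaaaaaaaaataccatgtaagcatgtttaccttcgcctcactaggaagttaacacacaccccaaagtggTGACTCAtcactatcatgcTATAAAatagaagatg
Mmp3: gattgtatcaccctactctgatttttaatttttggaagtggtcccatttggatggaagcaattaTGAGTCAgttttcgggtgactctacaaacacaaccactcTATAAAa
Mmp10: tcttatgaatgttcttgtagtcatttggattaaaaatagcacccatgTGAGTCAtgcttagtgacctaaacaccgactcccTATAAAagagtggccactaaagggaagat
Mmp1b: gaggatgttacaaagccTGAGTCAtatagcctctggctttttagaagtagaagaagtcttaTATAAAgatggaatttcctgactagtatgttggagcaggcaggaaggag

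The AP-1 letters begin 35 bases before the start site in Mmp13, 46 in Mmp3, 63 in Mmp10 and 93 in Mmp1b. Over 300 bases around the start (250 before, 50 after), they occurred in 5.11% of the 10175 tested genes with a RefSeq promoter and in 7.93% of all 27025 promoters. Among genes lower in KO1 by at least 2-fold it was 9.21% of 315 with a promoter, and among those higher by at least 2-fold 9.02% of 388. The interferon response core GAAANNGAA was in 8.57% of the lower, 7.22% of the higher and 7.11% of the tested genes, and the NF-kB-like letters GGGANTTTC in 3.17%, 0.773% and 0.993%, or 10 lower and 3 higher genes, all searched on both strands. Over all 27025 promoters these 2 were in 8.57% and 1.15%, in that order. TATAAA occurred in 12.4% of the lower, 10.6% of the higher and 6.8% of the tested genes, and in 14.2% of all promoters. Its letters begin 16 bases before the start site in Mmp13, 7 in Mmp3, 29 in Mmp10 and 49 in Mmp1b. Promoters with fewer than 5 CpG (a C followed by a G) made up 23.8% of the lower, 25.5% of the higher and 8.39% of the tested genes. Among all promoters the share was 38.3%. The part of CpG number in the shares of these letters was not tested. A match is a description of letters, and which factor binds there was not measured.

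AP-1 is a dimer of Jun and Fos family proteins, and its subunits moved in different directions. Fosl2 fell from 230, 224 and 238 CPM to 142, 162 and 154 CPM, and Junb from 151, 171 and 164 CPM to 109, 105 and 123 CPM. Jund rose from 96.3, 138 and 114 CPM to 178, 157 and 179 CPM. Jun (log2 -0.24), Fos (-0.57), Fosl1 (-0.10) and Fosb (0.14) did not pass the test.

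These belong to the immediate early genes and the feedback genes of MAPK signalling, of which 19 of 46 were lower and 7 higher, with a median log2 fold change of -0.23 against -0.002 over all genes. Egr1, a zinc finger factor induced by growth signals, fell from 85.5, 42.3 and 66.5 CPM to 22.3, 22.5 and 25.6 CPM (log2 -1.46). Dusp2, a MAPK phosphatase, fell by 1.13 on the log2 scale, and Zfp36, which speeds the decay of inflammatory mRNAs, by 0.91. Against this direction, Spry1, an inhibitor of receptor tyrosine kinase signalling, rose from 12.1, 14.1 and 13.8 CPM to 90.7, 69.7 and 97.5 CPM. Atf3, a stress-induced factor, was higher (log2 1.34), but Ctrl replicate 2 (24.6 CPM) was above KO1 replicate 2 (23.6 CPM), and the call was lost in 6 of the alternative settings (adjusted p 0.0527 to 0.084).

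Ligands and receptors changed in both directions. Of 46 growth factors and receptor tyrosine kinases, 12 were higher and 9 lower. Pdgfc, a ligand of PDGF receptors, rose from 2.43, 2.19 and 2.46 CPM to 20.6, 22.9 and 22.8 CPM and had 0 counts in KO2. Kitl, stem cell factor, rose from 36.6, 38.4 and 34.3 CPM to 119, 108 and 111 CPM. Ltk, a receptor of the ALK family, fell from 2.13, 2.45 and 2.28 CPM to 0.0861, 0.217 and 0.153 CPM.

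Of 47 cytokine and TNF receptors, 11 were higher and 9 lower. Lifr, the receptor for leukemia inhibitory factor, rose from 1.022, 0.619 and 1.46 CPM to 9.82, 9.79 and 10.6 CPM. Il2rg, the common gamma chain of interleukin receptors, fell from 22.3, 24.7 and 20.1 CPM to 0.201, 0.062 and 0.153 CPM. Il17rb was higher (log2 4.52) and Cd40 lower (-3.63), both at about 1 to 2 CPM in the higher group.

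TGF-beta and BMP signalling had 15 lower and 8 higher genes of 41. The lower ones include activin chains and their binding protein: Inhba fell from 14.96, 17.6 and 16.3 CPM to 8.21, 4.40 and 6.58 CPM, Inhbb was lost as given above, and Fst, follistatin, fell from 12.6, 8.47 and 12.2 CPM to 1.55, 1.52 and 1.81 CPM. Id4, an inhibitor of helix-loop-helix factors, was higher (log2 2.19). The 8 higher genes became 5 under the replicate block, which fits replicate number as a term, and likewise when replicate 1 or 3 of Ctrl, or replicate 3 of KO1, was left out.

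Chemokines and their receptors had 4 higher and 5 lower genes of 20. Cx3cl1, fractalkine, rose from 11.7, 7.43 and 10.6 CPM to 34.1, 46.6 and 45.5 CPM, and Ccrl2, a chemerin-binding receptor, from 0.811, 1.46 and 1.06 CPM to 5.94, 7.47 and 6.15 CPM. Cxcl16 fell from 69.2, 78.0 and 72.4 CPM to 37.0, 30.4 and 33.7 CPM, and Cxcl2, a chemokine that attracts neutrophils, fell by 2.71 on the log2 scale from a low level.

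Of 12 tested keratins, the filament proteins of epithelia, 4 were higher and 3 lower. Krt8 and Krt18, typical of luminal cells, rose, as did Krt80 (log2 0.76) and the barely detected Krt13 (4.06), while Krt14, Krt17 and Krt16, typical of basal or stressed epithelium, fell. Krt18 went from 312, 360 and 328 CPM to 626, 669 and 628 CPM, and Krt8 was at 387, 357 and 374 CPM against 545, 735 and 626 CPM. Krt18 lies in the chromosome 15 window of 30 genes with the highest median (0.48, 21 higher, 0 lower). Positions of Krt8 and Krt80 are not given here, so they may lie in it too. The part of position in the keratin values was not tested. The 3 lower keratins were at only 1.2 to 2.3 CPM in Ctrl on average, and Krt14 had 1 count left in KO1 against 133 (0.767%, 0.0193% to 4.35%). Trp63, a master regulator of basal epithelium, rose (log2 1.65), and Foxa1, a luminal factor, fell (-2.62).

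Of 24 cadherins and desmosome genes, 6 were higher and 7 lower: Ppl, periplakin, rose from 117, 106 and 133 CPM to 202, 262 and 233 CPM, and Evpl, envoplakin, by 1.84 on the log2 scale, whereas the large cadherins Celsr2 (-3.39) and Fat2 (-2.43) fell. Of 18 integrins, 6 were higher and 4 lower, with Itgb2 rising from 40.8, 43.5 and 43.1 CPM to 73.5, 77.5 and 81.8 CPM and Itga2, part of a collagen receptor, falling from 47.0, 72.7 and 54.7 CPM to 22.2, 12.5 and 15.5 CPM. Tight junction genes had 4 higher and 2 lower of 28 (1 lower without any 1 Ctrl library or KO1 replicate 3), among them Cxadr, the coxsackievirus and adenovirus receptor, which rose from 208, 205 and 193 CPM to 332, 308 and 303 CPM.

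Of 24 smooth muscle contractile genes, 7 were lower and 5 higher (3 without any 1 Ctrl library, KO1 replicate 2 or 3, or KO2 replicate 1). Acta2, smooth muscle actin, fell from 6.31, 5.57 and 5.17 CPM to 0.832, 0.774 and 0.551 CPM, and Tagln (log2 -2.69) and Des (-3.08) fell from about 2 CPM. Of 47 heparan sulfate and proteoglycan genes, 9 were higher and 10 lower. Sulf2, an extracellular sulfatase, rose from 7.45, 9.51 and 8.29 CPM to 66.8, 67.5 and 72.4 CPM, and Extl1, a glycosyltransferase of heparan sulfate, fell from 6.64, 9.45 and 8.14 CPM to 0.775, 0.155 and 0.612 CPM. Ptgs2, the inducible cyclooxygenase of prostaglandin synthesis, fell from 409, 492 and 445 CPM to 139, 92.4 and 120 CPM; it belongs to the fatty acid and lipid list, in which 8 of 54 were higher and 7 lower (4 lower without KO1 replicate 3).

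Lysosomal genes were called higher more often than all tested genes, with 23 of 59 higher (15.6% of all genes) and 4 lower, and a median of 0.17. Ctsh, a cathepsin, rose from 55.5, 50.9 and 51.2 CPM to 111, 126 and 119 CPM. The rises were otherwise small, such as Lamp2, a membrane protein, from 222, 231 and 219 CPM to 343, 335 and 322 CPM, and Cd68 (log2 0.89), which is also a macrophage marker. Ctsc, the cathepsin that activates serine proteases of immune cells, went the other way, from 39.9, 37.6 and 34.9 CPM to 3.33, 4.96 and 4.04 CPM. Of the 4 lower genes, 3 lie on chromosomes 7 and 12, and 2 were called without KO1 replicate 3.

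Proteasome subunits, which form the protease of the ubiquitin system, had 12 lower and 0 higher genes of 38 (edgeR; DESeq2 called 1 higher), with a median of -0.17. Psmc1 was lowest, from 249, 198 and 216 CPM to 118, 144 and 139 CPM, followed by Psmd8 (-0.72), Psmc4 (-0.65) and Psmb6 (-0.65). Of the 12, 7 lie on chromosomes 7, 12 and 13, where 8 of the 38 subunit genes are, and the median over the other 30 was -0.13. Nuclear-encoded respiratory chain genes had 8 lower and 2 higher of 74, a smaller share than over all tested genes in either direction. Of their 8 lower genes, 5 lie on those 3 chromosomes, and over the libraries left out 1 at a time the counts were 3 to 12 lower, lowest without Ctrl replicate 1, and 0 to 4 higher. The part of the chromosomes in these lists was not tested.

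Ion channels had 25 higher and 12 lower genes of 69, with a median of 0.21, and the 12 became 7 without KO1 replicate 3. Trpv3, a warmth-sensing channel, rose from 0.361, 0.366 and 0.425 CPM to 2.76, 3.07 and 3.03 CPM, and Cacna1b, a calcium channel of nerve endings, had 110 counts in Ctrl and 0 in KO1 (at least 14-fold lower). G protein-coupled receptors had 17 higher and 14 lower of 70. Adgre5, the adhesion receptor CD97, fell from 8.32, 11.1 and 9.97 CPM to 0.344, 0.279 and 0.214 CPM, and Bdkrb2, a bradykinin receptor of the chromosome 12 stretch, by 2.61 on the log2 scale. Axon guidance genes had 15 higher and 10 lower of 53, with Nrp1, a co-receptor of semaphorins and VEGF, rising from 11.2, 8.97 and 9.18 CPM to 29.5, 28.9 and 28.0 CPM.

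**Figure D5:**
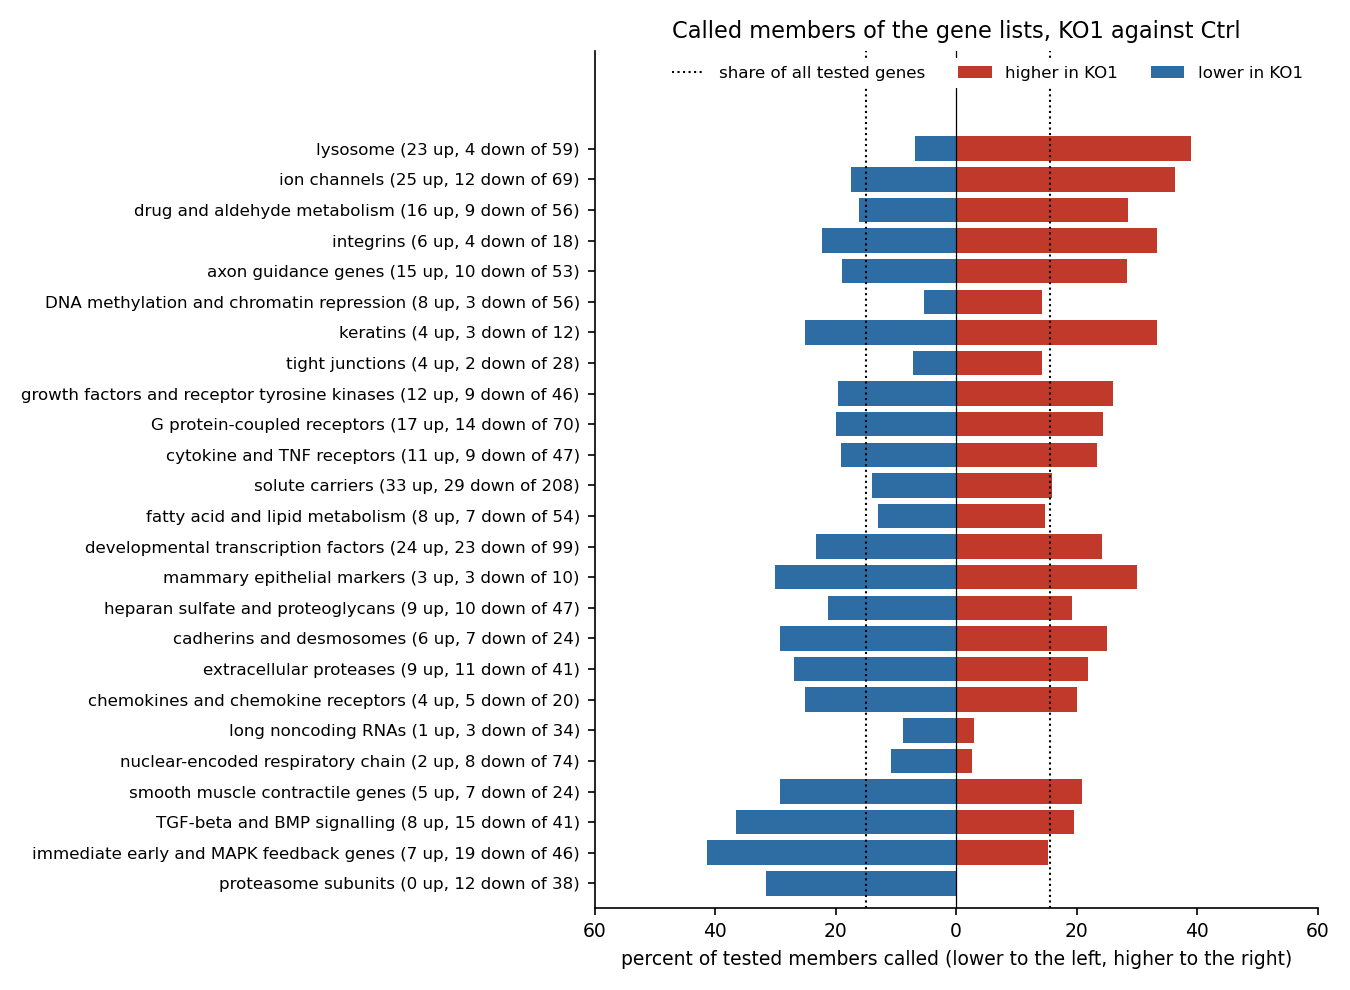
Percent of the tested members of each list called lower (blue, to the left) or higher (red, to the right) in KO1, with the counts beside the names, for lists with at least 10 tested members; dotted lines mark the shares over all tested genes, 14.9% and 15.6%. Lysosome (23 of 59) and ion channels (25 of 69) reach farthest to the right, and immediate early and MAPK feedback genes (19 of 46) farthest to the left.

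Solute carriers were called about as often as all genes, with 33 higher and 29 lower of 208. The amine transporters Slc6a2 (noradrenaline) and Slc6a4 (serotonin) were at most 0.169 CPM in Ctrl, about 1 to 2 CPM in KO1 and at 0 in KO2. Drug and aldehyde metabolism had 16 higher and 9 lower of 56. Cyp26b1, an enzyme that breaks down retinoic acid, rose from 5.08, 8.07 and 6.11 CPM to 27.9, 19.9 and 30.2 CPM. Sult2b1, a sulfotransferase of sterols, fell by 2.11 on the log2 scale.

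Developmental transcription factors had 24 higher and 23 lower of 99. Ehf, an epithelial ETS factor, rose from 3.43, 3.60 and 4.10 CPM to 24.5, 22.6 and 25.3 CPM and was at most 0.0328 CPM in KO2. Hes1, a target of Notch signalling, fell from 21.2, 20.1 and 22.1 CPM to 6.26, 5.33 and 5.18 CPM. The list of DNA methylation and chromatin repression genes had 8 higher and 3 lower of 56 (7 lower without KO1 replicate 1), with Tet1, which oxidises methylated cytosine, falling from 4.48, 3.54 and 4.25 CPM to 1.29, 1.46 and 1.65 CPM. Among 34 long noncoding RNAs, Malat1, Peg13 (log2 -1.31) and Mir155hg (-0.86) were lower and Firre was higher (0.35), and 6 were lower without KO1 replicate 1. The call of Firre was lost in 7 settings (adjusted p 0.0542 to 0.113). Of 2 tested fibroblast markers, Col1a1 was lower (-1.98), a call that was lost without any 1 of the 6 libraries of Ctrl and KO1 (adjusted p 0.0546 to 0.111).

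Against KO2, KO1 was higher at 4034 of 13682 genes (29.5%) and lower at 3495 (25.5%). The genes set apart most from both other groups in 1 direction were ranked by the smaller of the 2 fold changes. On the higher side these were Ror1, Asb2, Acox2, Abca8b, Prune2, Map2, Lifr and Pdgfc. Acox2 alone among these 8 was at a like level in the other groups, at 0.811, 1.60 and 0.942 CPM in Ctrl and 0.884, 1.05 and 1.19 CPM in KO2, with 14.0, 11.1 and 14.1 CPM in KO1. The other 7 were lower in KO2 than in Ctrl by their means.

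On the lower side they were Malat1, Ube2ql1, Ogdhl, Pros1, Cpm, Sall2, Adgre5 and Unc93b1. Ogdhl was at 7.27, 7.68 and 7.47 CPM in Ctrl and 12.5 to 13.3 CPM in KO2, with 1 count in KO1. Pros1 was at 8.98, 7.43 and 8.08 CPM in Ctrl and 3.64 to 4.14 CPM in KO2, with 2 counts in KO1. Unc93b1, which carries nucleic acid-sensing Toll-like receptors to endosomes, was at 3.55, 4.02 and 4.41 CPM in Ctrl, 0.172, 0.0929 and 0.184 CPM in KO1 and 7.97 to 8.29 CPM in KO2. The carboxypeptidase M gene (symbol Cpm) was at 0.992, 1.38 and 1.22 CPM in Ctrl and 8.22 to 11 CPM in KO2, with 0 counts in KO1 (at least 22.3-fold lower than Ctrl). Sall2, a zinc finger factor, had 1 count in KO1 against 151 in Ctrl. For these 16 genes no KO1 library overlapped with a Ctrl or a KO2 library, which their choice by calls and folds makes likely. Of all 13682 tested genes, KO1 lay above Ctrl without overlap at 2986 and below it at 2856.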

How the data were processed

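RNA was sequenced in 9 libraries, grouped by title. For each gene of a library, the authors deposited an expected count, not normalised, and an FPKM that the authors scaled by length and library size. The submitters' processing notes name HISAT, RSEM, mm10 and GRCm38; versions are not given in the sources used here. Genes missing from a table count as 0. Of 19072 identifiers, 1353 were unnamed models of the provider (2.98% to 3.34% of the counts in the 6 libraries), and 17682 of 17719 numeric ones matched RefSeq.

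Counts were rounded to whole numbers and went into edgeR 4.0.16 under R 4.3.3 (filterByExpr, TMM scaling, robust quasi-likelihood F test) in 1 fit of all 9 libraries by group, leaving 6 residual degrees of freedom. The Benjamini-Hochberg adjustment ran over 13682 genes, with calls at an adjusted p under 0.05. A standard error is the size of the log2 fold change divided by the root of F. CPM are after TMM scaling. A prior count of 2 went into the log2 CPM behind the principal components. For 0 counts in a group the fold is a bound against 3 counts plus those hidden under a listing minimum of 0.005 FPKM. For 1 to 3 counts an exact 95% binomial interval is given. Precision follows from totals of 31451889 to 35406395 counts and a biological coefficient of variation of 11.1%.

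The rule for named genes took Malat1 and Neat1, per direction the 12 genes with the largest fold, the 8 with the largest CPM change and the 8 that differ most from both Ctrl and KO2 (named, at least 5 CPM in the higher group), and up to 4 called members of at least 1 CPM per list. Genes beyond it (those of and beside the stretches along chromosomes, Mmp1a, Mmp3, Mmp11, Mmp15, Timp1, Timp2, the AP-1 subunits, Zfp36, Krt8, Krt80, Krt13, Gata3, Lamp2, Hes1, Tnfsf15, Khdrbs3 and Wnt9b) were chosen after their values were seen. Members and 30 gene lists, 6 of them markers of cell types, were chosen with earlier results of these data known. Positions, promoters and sequences are from RefSeq GRCm38.p6.

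Alternatives were other scalings, filters, DESeq2 1.42.0, limma-voom (limma 3.58.1), only the 2 groups compared, a replicate block and each library left out. Libraries of Ctrl and KO1 with the same number had correlations of deviations of -0.343 to 0.032, so samples were treated as unpaired. The design text numbers the sixth and ninth samples differently from their titles, and the titles were used. On simulated data of 13375 genes for KO1 against Ctrl, edgeR recovered 32 of 50 changes of 1.5-fold, 48 of 50 of 2-fold and all 50 of 4-fold, with 10 false calls. The simulation gave every gene the same spread, set KO2 to the Ctrl means and changed few genes. Its figures hold for that setting and do not measure the accuracy of the real comparison.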

Additional observations from a re-analysis of the deposited data

Results flagged for a closer look

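Results listed here are genes at which KO1 differed from both other groups in the same direction, by the test against KO2. On the log2 scale, KO1 was above KO2 by 8.68 at Ror1, 8.78 at Asb2, 3.65 at Acox2, 8.46 at Abca8b, 7.74 at Prune2 and 6.45 at Lifr. It was below KO2 by these log2 fold changes: Malat1 -5.21, Ogdhl -9.85, Pros1 -7.36, Ube2ql1 -11.07, Sall2 -9.25, Adgre5 -5.72 and Unc93b1 -5.73. Most of these fitted values are no measure of size, since a group with 0 or few counts makes them depend on the prior count. Map2 (14.67) and Pdgfc (12.48) had 0 counts in KO2, and Cpm (-11.31) had 0 in KO1. Over the 3 KO2 libraries, Asb2 had 1 count, Abca8b 2, Ror1 4 and Lifr 10, and over the 3 KO1 libraries Ogdhl and Sall2 had 1 and Ube2ql1 and Pros1 2.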

How the results depend on the processing

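KO1 differed from Ctrl at 3215 to 4503 genes over all settings, and 3132 to 4144 of the 4177 called genes were called again; Malat1 stayed between -7.19 and -6.93. The replicate block gave 3365 calls (1706 higher, 1659 lower), and against KO2 6829 (3711 higher, 3118 lower). Same-numbered libraries did not pair (correlations -0.343 to 0.032, against -0.168 to 0.336 for different numbers). Of 48 list counts, 13 moved by over 1.5 times in some setting, and the cause was not tested. Under the replicate block there were 0 long noncoding RNAs higher, 5 TGF-beta genes higher, 1 tight junction gene lower, 3 smooth muscle genes higher, 4 fatty acid genes lower, and 1 higher and 5 lower respiratory chain genes. With only the 2 groups compared, these were 1 tight junction gene lower, 3 smooth muscle genes higher, 3 fatty acid genes lower, and 0 higher and 4 lower respiratory chain genes. With no filter, 4 tight junction genes were lower and 3 smooth muscle genes higher, and DESeq2 called 1 proteasome gene higher. Leaving out 1 library at a time gave 0 to 3 long noncoding RNAs higher and 3 to 6 lower, 5 to 8 TGF-beta genes higher, 1 to 2 tight junction genes lower, 4 to 11 proteases higher, 3 to 6 smooth muscle genes higher, 7 to 13 ion channels lower, 4 to 8 fatty acid genes lower, 3 to 7 chromatin genes lower, 0 to 4 respiratory chain genes higher and 3 to 12 lower, and 2 to 4 lysosomal genes lower. Of 138 called named genes besides Malat1, 6 lost their call in some setting (Firre, Atf3, Uqcrq, Uqcrb, Ndufs6 and Col1a1) and 0 reversed. Depth limits the genes with 0 to 3 counts in a group to bounds or wide intervals.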
